A study of Arabidopsis thaliana with 12 samples.

Results

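The genes described here had a lower transcript level in wild-type Arabidopsis thaliana roots kept without iron (Fe) than in those kept with Fe. In wild-type shoots the difference between both media stayed within a narrow range. A probe set, the unit that reports a transcript on the array, entered the set when its mean log2 level in roots without Fe minus that in roots with Fe was -0.9 or less. Both root arrays without Fe also had to lie below both with Fe, and the same difference in shoots had to lie between -0.45 and 0.45. Of 22746 probe sets, 152 (0.668%) met these thresholds. Leaving out 23 annotated genes of the organelle genomes and 3 probe sets excluded by name gave 126 members. Of these, 50 have a single gene in the platform annotation, 2 have several, and 74 are not listed there and are unnamed. Organelle genes could be recognised only among annotated probe sets.

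Transcripts were measured in roots and shoots of seedlings aged 15 days on 12 arrays, 2 for each of 6 groups. After 10 days on a control medium, seedlings spent 5 days on agar freed of metals by an EDTA wash, either with 10 µM Fe-HBED, an Fe chelate, or with no added Fe. The groups were the irt1 mutant with Fe (allele irt1-2, also called pam42), wild type (Col-0) without Fe, and wild type with Fe, with roots and shoots taken from each. IRT1 encodes the main transporter by which root cells take up ferrous Fe. A single mutant allele was profiled, it was not grown without Fe, and each sample is a whole organ. No probe set carries the name IRT1 in the annotation, and the gene targeted in the mutant could not be checked.

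Fe is a cofactor of the photosystems, of cytochromes and of many oxygenases, and the photosynthetic electron transport chain holds a large share of the Fe of a green plant. Roots grown on plates in the light can hold plastids with some chlorophyll, so nuclear genes of photosynthesis are transcribed there at levels far below those of leaves. Root transcripts also include secreted and cell wall proteins of the epidermis and the inner cell layers, and enzymes of sulfate assimilation and of specialised metabolism.

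The members were chosen by the wild-type values, which are given without a test. Over the 126 members, the root difference (without Fe minus with Fe, log2) ran from -2.3 to -0.9 with a median of -1.05, and the shoot difference ran from -0.45 to 0.35 with a median of -0.15. Among all probe sets 18.7% of probe sets had both root arrays without Fe below both with Fe, and 0.998% also reached -0.9. Just inside the root threshold lay 20 members at -0.9, and 25 probe sets with non-overlapping root arrays and a shoot difference in range lay just outside it at -0.85. At the shoot thresholds 5 members lay at -0.45 and 0 at 0.45, against 5 probe sets at -0.5 and 1 at 0.5 just outside. Many members had high shoot levels. In wild-type shoots with Fe, 51 of the 126 had a mean of at least 10 and 23 had a mean of at least 12. Of all probe sets, 0.229% reached a mean of 12 in that group. At the low end, 27 of the 126 had a mean below 4 in the same group, on a scale that begins at 1.9. Whether differences at the high levels are compressed, so that a small shoot difference hides a change, was not tested. Nor was it tested whether a change in shoots could be seen at the low levels. The values were deposited with 1 decimal, so means of 2 arrays move in steps of 0.05. Because the rule took members whose wild-type root arrays read high with Fe and low without Fe, and whose wild-type shoot arrays differed little, every difference between irt1 and a wild-type group shares selected arrays. Those differences are therefore given below as descriptions, for single genes mostly with their standard error (SE). Calls and p-values for them are given later and are no independent test of the members. Only irt1 roots against irt1 shoots is free of the selected arrays.

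**Figure D1:**
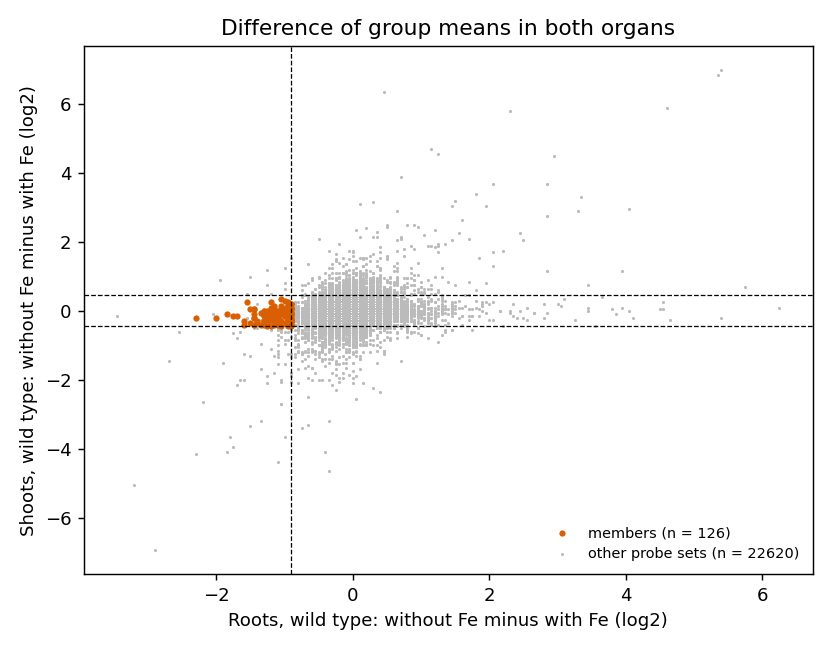
Each point is a probe set, placed by the difference of group means (wild type without Fe minus with Fe, log2) in roots on the x axis and in shoots on the y axis. Orange points are the 126 members, grey points the other probe sets, and dashed lines mark the thresholds of -0.9, -0.45 and 0.45 that chose the members. Some grey points in the same corner are the probe sets left out by name or as organelle genes.

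The organ labels were checked with marker genes. The 3 measured shoot markers (RCA, PSAN and LHCB4.3) had summed log2 levels of 17.1 to 17.7 in irt1 roots, 15.4 to 16.1 in wild-type roots without Fe and 18.6 on both arrays of wild-type roots with Fe. The sums were 31.0 to 31.4 in irt1 shoots, 30.3 to 30.6 in wild-type shoots without Fe and 33.9 to 34.0 in wild-type shoots with Fe. RCA is itself a member, and LHCB4.3 had mean levels of 4.75 in irt1 roots, 4.2 in wild-type roots without Fe and 4.2 in wild-type roots with Fe. The 4 measured root markers (AT4G15390, AT3G01190, EXPA7 and XTH26) summed to 37.1 to 37.4 in irt1 roots, 37.7 to 38.1 in wild-type roots without Fe and 34.9 to 35.0 in wild-type roots with Fe, and to 14.9 to 17.4 over the shoot arrays. XTH26 carried the difference among the root sums, with means of 5.9 in irt1 roots, 6.4 in wild-type roots without Fe and 4.05 in wild-type roots with Fe, while the root group means of AT4G15390, AT3G01190 and EXPA7 lay within 11.35 to 11.40, 11.50 to 11.85 and 8.05 to 8.25. The shoot marker sum thus moved in roots in the same direction as the members. RCA was lower without Fe by the rule, and PSAN had root means of 5.7 in irt1, 5.0 in wild type without Fe and 6.9 with Fe. PSAN was also lower in wild-type shoots without Fe, at 10.7 against 12.2. The part of shoot marker levels in the lower levels of the members was not tested. In whole organs, fewer cells of a type and less RNA per cell cannot be told apart. The 3' minus 5' log2 difference of the GAPDH control probe sets was 1.6 on irt1 shoot replicate 1, against 0.7 to 1.0 on the other 11 arrays.

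The irt1 arrays had no part in choosing the members, so roots and shoots of irt1 show where these transcripts are high without reuse of the selecting values. The members lay on both sides. The 8 named members assigned to photosystems and thylakoid were far lower in roots than in shoots. The 6 named members assigned to cell wall and secreted proteins were higher in roots. Of the 126 members, 66 (52.4%) were lower and 48 (38.1%) higher in irt1 roots than in irt1 shoots, and 12 were not called (limma, Benjamini-Hochberg adjusted p under 0.05 over all probe sets). Of the 66 lower members 47, and of the 48 higher members 24, have no single gene name. Organelle genes that are not annotated may be among these. The same comparison called 24.1% of all probe sets lower and 28.5% higher, 52.5% in all. The median difference was -1.0 over the members, with a range of -8.00 to 4.85, and 0.00 over all probe sets. Without irt1 shoot replicate 1 the number of members called was 115, against 114 with it.

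**Figure D2:**
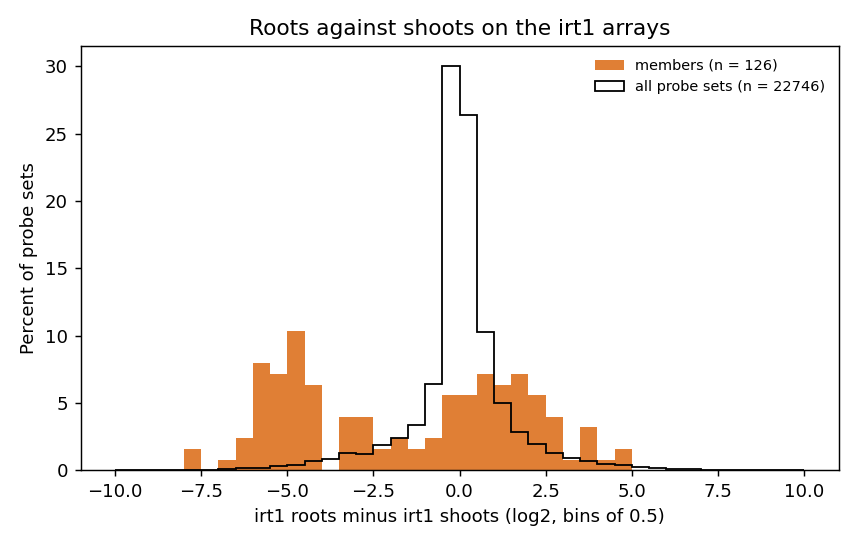
The histogram gives the percent of probe sets (y axis) in bins of the log2 difference irt1 roots minus irt1 shoots (x axis), as filled bars for the 126 members and as a line for all 22746 probe sets. The members spread over both sides of 0, with 66 called lower and 48 called higher in roots, and the median over all probe sets is 0.00.

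All 8 named members assigned to the photosystems and thylakoid group were lower in irt1 roots than in irt1 shoots, by log2 differences between -6.40 and -4.55. Members without a single gene name could not be assigned to a role group. In wild-type roots their differences (without Fe minus with Fe) ran from -1.20 to -0.90, with a median of -0.95. PSAE-1, a stromal subunit of photosystem I near the docking site of ferredoxin, had log2 levels of 6.0 and 6.0 in irt1 roots, 6.0 and 6.1 in wild-type roots without Fe and 6.9 and 7.1 in wild-type roots with Fe. In shoots it read 12.5 and 12.3 in irt1, 12.4 and 12.5 in wild type without Fe and 12.7 and 12.6 in wild type with Fe. The irt1 root arrays lay below both wild-type root arrays with Fe, with a difference of -1.0 ± 0.12 (SE). PSBY, a small protein of photosystem II, read 5.5 and 5.4 in irt1 roots, 5.2 and 5.3 in wild-type roots without Fe and 6.2 and 6.2 in wild-type roots with Fe. Again irt1 roots did not overlap with wild-type roots with Fe (-0.75 ± 0.10, SE). LHCB4.1, the minor antenna protein CP29 of photosystem II, read 7.2 and 7.4 in irt1 roots, 7.0 and 6.8 in wild-type roots without Fe and 8.0 and 8.2 in wild-type roots with Fe. Its irt1 root arrays lay between both wild-type root groups, -0.80 ± 0.13 (SE) from the wild type with Fe.

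The other members of that group were PSB27, an assembly and repair factor of photosystem II, ATPC1, the gamma subunit of the chloroplast ATP synthase, AT1G52220, a thylakoid protein of the CURT1 family, TROL, which anchors ferredoxin-NADP reductase to the thylakoid, and CaS, a thylakoid calcium-sensing protein. Their differences between irt1 roots and wild-type roots with Fe were -0.90 for PSB27, -0.90 for AT1G52220, -0.60 for CaS, -0.55 for ATPC1 and -0.50 for TROL. The median over the 8 genes was -0.78 in irt1 roots, from which nothing is read, since the same wild-type arrays chose the genes.

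Carbon fixation and related chloroplast metabolism gave 5 named members. PRK, the phosphoribulokinase of the Calvin cycle, read 4.0 and 4.0 in irt1 roots, 4.0 and 3.8 in wild-type roots without Fe and 5.0 and 5.2 in wild-type roots with Fe. In irt1 shoots it read 11.7 on both arrays. Its root to shoot difference in irt1, -7.70 ± 0.12 (SE; limma adjusted p = 2.63e-12), was the lowest of the named members. The irt1 and Fe-deficient root arrays of PRK overlapped, and irt1 differed from wild-type roots with Fe by -1.10 ± 0.12 (SE). Levels near 4 lie in the lower part of the scale, which begins at 1.9, and log2 differences there understate a change. AT5G58330, a chloroplast NADP-dependent malate dehydrogenase, read 5.4 and 5.3 in irt1 roots, 4.8 and 4.9 in wild-type roots without Fe and 6.3 and 6.5 in wild-type roots with Fe. All 3 root groups were apart from each other for this gene, with irt1 between both wild-type groups, -1.05 ± 0.12 (SE) from the wild type with Fe. RCA, the rubisco activase, read 6.9 and 7.0 in irt1 roots, 6.7 and 6.4 in wild-type roots without Fe and 7.4 and 7.6 in wild-type roots with Fe. Its irt1 arrays likewise lay between both wild-type root groups. AT1G74470, the geranylgeranyl reductase of chlorophyll synthesis, had means of 8.10 in irt1 roots, 7.50 in wild-type roots without Fe and 8.50 in wild-type roots with Fe. AT1G80380, the glycerate kinase of photorespiration, differed from the rest of this group, with 9.1 and 9.5 in irt1 roots and 9.5 and 9.5 in irt1 shoots, a difference of -0.20 that was not called. It read 8.2 and 8.4 in wild-type roots without Fe and 8.9 and 9.6 in wild-type roots with Fe.

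The 6 named members assigned to cell wall or secreted proteins were all higher in irt1 roots than in irt1 shoots, by 0.60 to 3.50. Their levels in irt1 roots lay at different places relative to the wild-type groups. AT2G43890, a pectin lyase-like protein, read 3.5 and 3.6 in irt1 roots, 3.9 and 3.8 in wild-type roots without Fe and 5.2 and 4.9 in wild-type roots with Fe. Its irt1 root arrays were the lowest, -1.50 ± 0.13 (SE) from wild-type roots with Fe. PDF2.1, a plant defensin, read 5.9 and 6.1 in irt1 roots, 6.4 and 6.9 in wild-type roots without Fe and 7.5 and 7.7 in wild-type roots with Fe. The 3 root groups did not overlap, and irt1 was the lowest. The difference to wild-type roots with Fe was -1.60 ± 0.24 (SE). BGLU45, a beta-glucosidase that acts on monolignol glucosides, the stored precursors of lignin, read 4.8 and 4.6 in irt1 roots, 3.5 and 3.5 in wild-type roots without Fe and 4.6 and 4.9 in wild-type roots with Fe. Here irt1 roots overlapped with wild-type roots with Fe and lay above those without Fe by 1.20 ± 0.13 (SE). AT2G39040, a class III peroxidase, read 7.2 and 7.2 in irt1 roots, 5.9 and 6.5 in wild-type roots without Fe and 7.3 and 7.2 in wild-type roots with Fe. Its irt1 roots likewise overlapped with wild-type roots with Fe, and both lay above the roots without Fe. AT1G62770 and AT5G51520, of the family of pectin methylesterase and invertase inhibitors, had differences of -0.80 and -0.45 between irt1 roots and wild-type roots with Fe.

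Of the 5 named members of sulfur and specialised metabolism, 4 were higher and 1, AT2G36690, was lower in irt1 roots than in irt1 shoots (limma). The AT2G36690 call was lost without either irt1 root array (adjusted p 0.0564 and 0.174) or irt1 shoot replicate 2 (0.158). APS4, an ATP sulfurylase, the first enzyme of sulfate assimilation, read 10.1 and 10.2 in irt1 roots, 8.8 and 9.2 in wild-type roots without Fe and 10.4 and 10.5 in wild-type roots with Fe. Its wild-type difference without Fe was -1.45 in roots and -0.40 in shoots. The irt1 roots lay above wild-type roots without Fe by 1.15 ± 0.15 (SE) and just below those with Fe. TPS-CIN, a terpene synthase that makes 1,8-cineole in roots, read 8.0 and 7.6 in irt1 roots, 6.6 and 5.4 in wild-type roots without Fe and 7.3 and 6.9 in wild-type roots with Fe. The arrays without Fe were the lowest and differed from each other by more than the arrays of the other root groups. The irt1 arrays were the highest, 1.80 ± 0.30 (SE) above wild-type roots without Fe. Its probe set may also read a near-identical neighbouring copy. In irt1 shoots TPS-CIN read 2.9 and 3.1, and its root to shoot difference of 4.80 was the highest of the named members. The cytochrome P450 gene CYP718, the phi-class glutathione transferase gene ATGSTF13 and the 2-oxoglutarate and Fe-dependent oxygenase gene AT2G36690 had root means of 6.50, 6.10 and 4.75 in irt1, 5.65, 5.65 and 4.0 in wild type without Fe and 6.55, 6.85 and 5.00 in wild type with Fe.

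**Figure D3:**
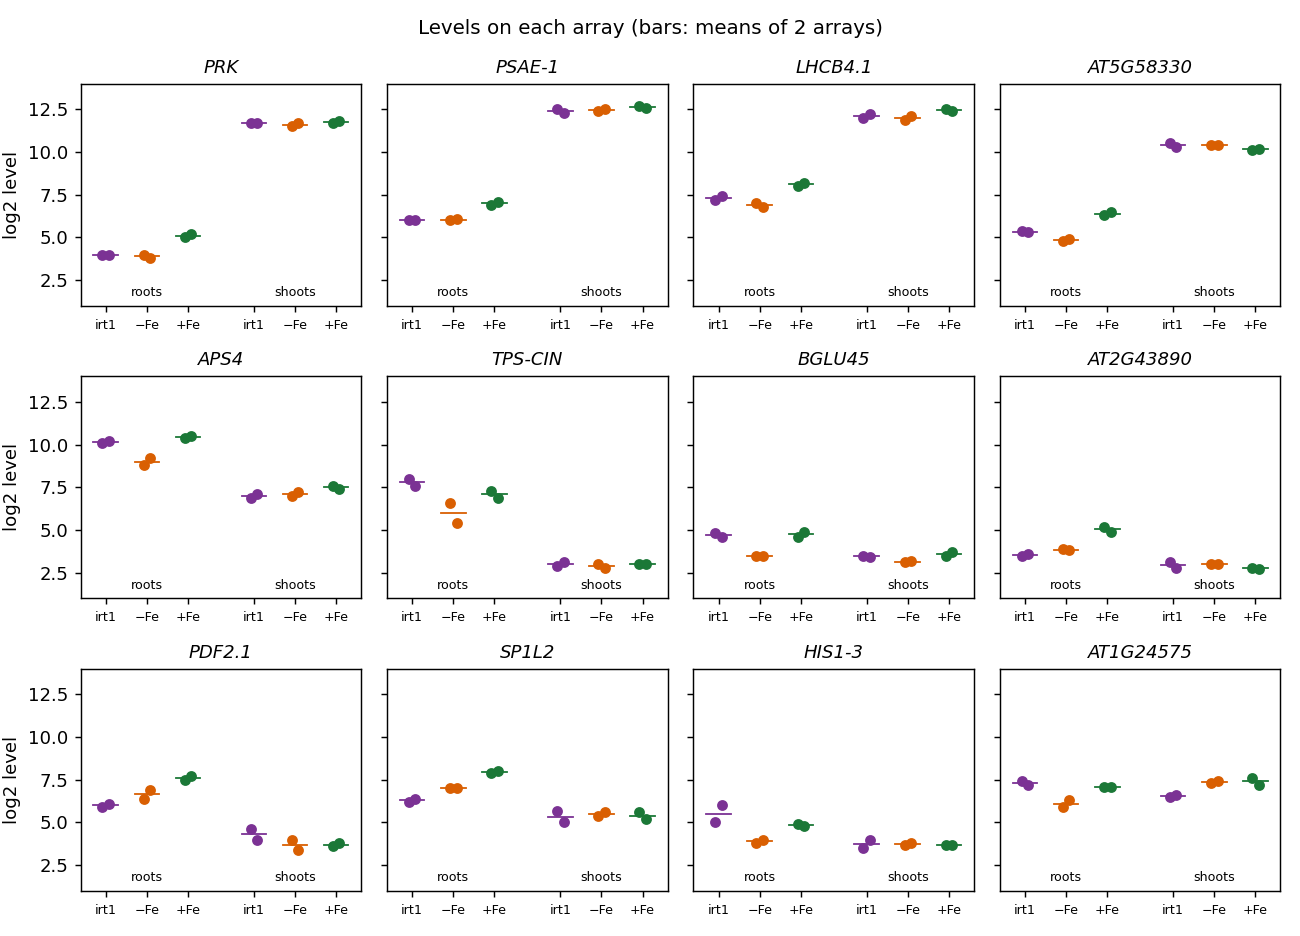
Log2 levels (y axis) of 12 members on each array, with roots on the left and shoots on the right of each panel, for irt1 with Fe (purple), wild type without Fe (orange) and wild type with Fe (green). Bars are means of 2 arrays. PRK, PSAE-1, LHCB4.1 and AT5G58330 are far lower in roots than in shoots, while APS4 and TPS-CIN are higher in roots, and irt1 roots of PDF2.1 and SP1L2 lie below both wild-type root groups.

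Regulatory genes gave 6 named members. HIS1-3, a linker histone variant known to be induced by water deficit, read 5.0 and 6.0 in irt1 roots, 3.8 and 4.0 in wild-type roots without Fe and 4.9 and 4.8 in wild-type roots with Fe. The irt1 arrays were the highest root arrays of this gene and also the farthest apart. The difference was 1.60 ± 0.26 to wild-type roots without Fe and 0.65 ± 0.26 to wild-type roots with Fe (SE). AT1G36060, AT1G64380 and AT4G39780 encode AP2/ERF transcription factors, AT5G10970 encodes a C2H2 zinc finger protein, and WES1 (GH3.5) encodes an enzyme that conjugates auxin to amino acids. AT4G39780 read 7.1 and 7.0 in irt1 roots, 6.3 and 6.2 in wild-type roots without Fe and 7.1 and 7.2 in wild-type roots with Fe, so that irt1 lay beside the wild type with Fe. AT5G10970 read 5.0 and 5.1 in irt1 roots, 4.9 and 5.0 in wild-type roots without Fe and 5.7 and 6.1 in wild-type roots with Fe, so that irt1 lay beside the Fe-deficient wild type.

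The remaining 20 named members were not assigned to a role group. SP1L2, a SPIRAL1-like protein that associates with microtubules, read 6.2 and 6.4 in irt1 roots, 7.0 and 7.0 in wild-type roots without Fe and 7.9 and 8.0 in wild-type roots with Fe. As for PDF2.1, irt1 roots were the lowest group, -1.65 ± 0.20 (SE) from wild-type roots with Fe. AT2G28780 read 7.3 and 6.9 in irt1 roots, 7.8 and 7.6 in wild-type roots without Fe and 8.7 and 8.5 in wild-type roots with Fe. Here too irt1 roots were the lowest, -1.50 ± 0.19 (SE) from wild-type roots with Fe. AT1G52560, of the small heat shock protein family, read 3.4 and 3.1 in irt1 roots, 3.3 and 3.5 in wild-type roots without Fe and 4.4 and 4.3 in wild-type roots with Fe. The irt1 and the Fe-deficient wild-type arrays overlapped, and both lay below wild-type roots with Fe, irt1 by -1.10 ± 0.14 (SE). AT5G14120, of the major facilitator family of transporters, behaved otherwise, with 9.7 and 9.8 in irt1 roots, 8.5 and 8.6 in wild-type roots without Fe and 9.3 and 9.8 in wild-type roots with Fe. AT5G20700 read 8.2 and 8.1 in irt1 roots, 7.6 and 7.2 in wild-type roots without Fe and 8.6 and 8.7 in wild-type roots with Fe. Irt1 roots of AT5G54300 differed by 0.75 from wild-type roots without Fe and by -0.75 from wild-type roots with Fe. AT4G20320, a CTP synthase, had means of 5.95 in irt1 roots, 5.80 in wild-type roots without Fe and 6.85 in wild-type roots with Fe. AT2G43160, an epsin-like protein of vesicle traffic, read 5.0 and 5.3 in irt1 roots, 5.5 and 4.4 in wild-type roots without Fe and 5.8 and 5.9 in wild-type roots with Fe, so that its arrays without Fe lay above and below those of irt1. AT1G74470 and AT1G74490, a protein kinase gene, lie 2 genes apart on chromosome 1 in assembly TAIR10.1.

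**Figure D4:**
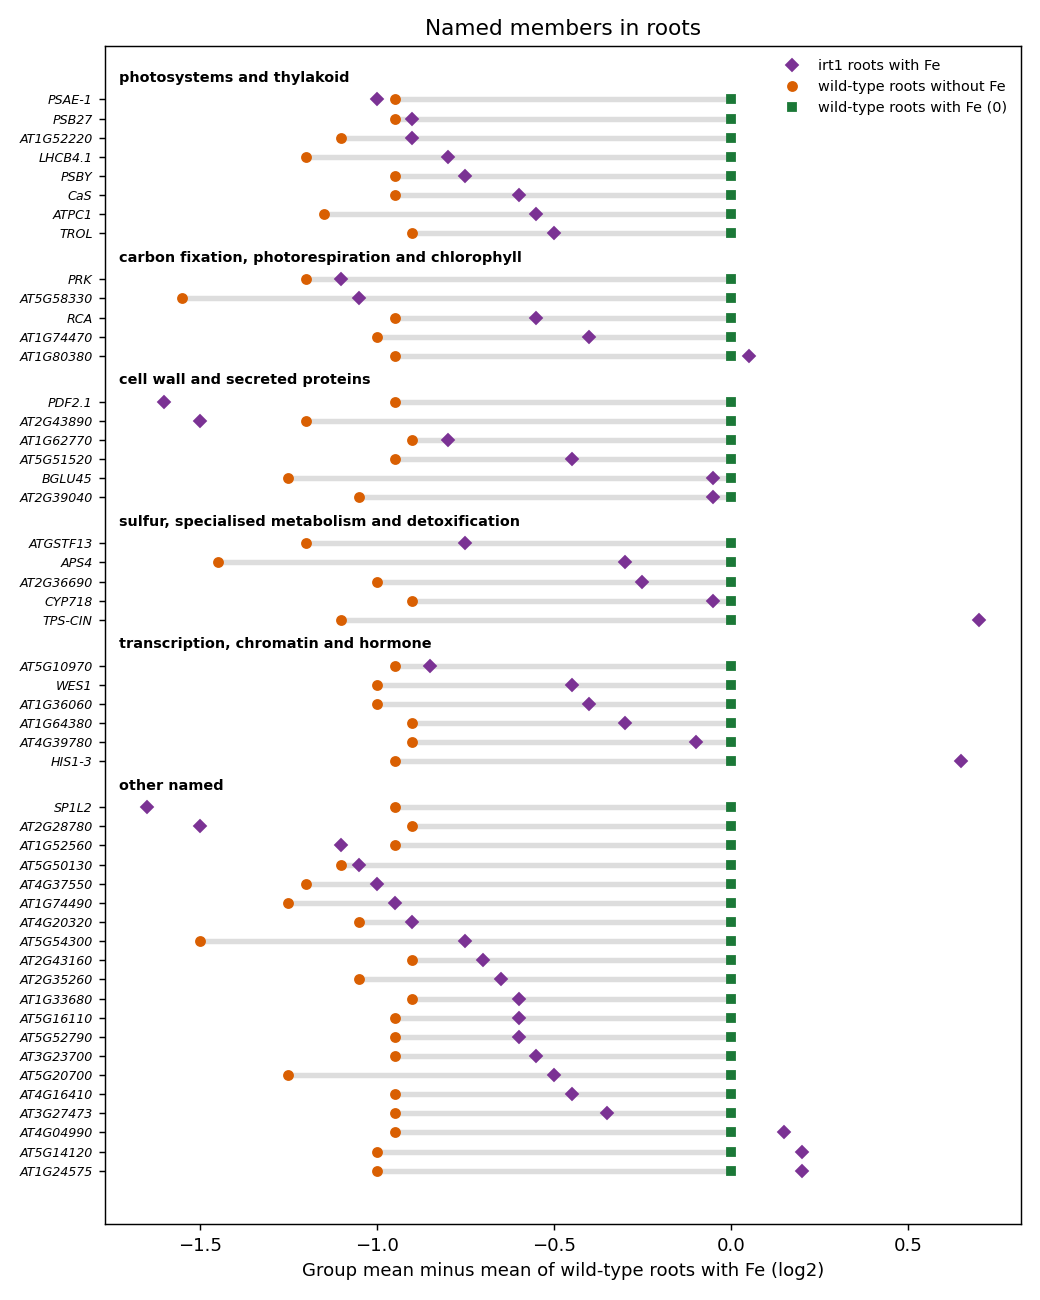
For each of the 50 named members the mean log2 level of irt1 roots with Fe (purple diamonds) and of wild-type roots without Fe (orange circles) is drawn minus the mean of wild-type roots with Fe (green squares at 0), each a mean of 2 arrays, in groups by role. Diamonds of the photosystem and thylakoid genes lie between -1.0 and -0.50, and those of sulfur and specialised metabolism between -0.75 and 0.70.

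A further 76 members have no single gene name. The member with the lowest wild-type root difference among them read 3.6 and 3.8 in irt1 roots, 3.2 and 3.6 in wild-type roots without Fe and 5.5 and 5.9 in wild-type roots with Fe, so that irt1 roots lay beside the Fe-deficient wild type. The member with the next lowest read 9.0 and 9.2 in irt1 roots, 7.5 and 7.7 in wild-type roots without Fe and 9.5 and 9.7 in wild-type roots with Fe, so that irt1 roots lay nearer to the wild type with Fe. Of the 76, 47 (61.8%) were called lower and 24 (31.6%) higher in irt1 roots than in irt1 shoots (limma), against 24.1% and 28.5% of all probe sets.

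The description of these genes as low in Fe-deficient roots comes from the wild type, and irt1 roots were set beside both wild-type root groups as values. For 104 members the mean of irt1 roots lay between those of both wild-type groups, for 11 it lay below the wild type without Fe and for 11 above the wild type with Fe. The median difference to wild-type roots with Fe was -0.65 in irt1, against the -1.05 without Fe that the rule fixed, and the median difference of irt1 to wild-type roots without Fe was 0.45. Both wild-type groups were selected for their values, high with Fe and low without, so the place of irt1 between them is not independent of that choice.

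The same limit holds for the calls of the 12-array limma model, from which nothing about the members is read. In irt1 roots against wild-type roots with Fe, 63 members (50%) were called lower and 2 higher, where the whole array had 1.52% lower and 1.88% higher. Of the 63, 40 were among the 76 members without a single gene name. Of the 8 photosystem and thylakoid genes 6 were called lower, and of the 5 genes of carbon fixation and chlorophyll 3. Of the 6 cell wall and secreted protein genes 3 were called lower, and of the 5 genes of sulfur and specialised metabolism 0. The 6 regulatory genes gave 1 and the 20 other named genes 10. Without irt1 root replicate 1 or 2 the count over both directions was 36 or 43, without wild-type root replicate 1 or 2 (with Fe) 42 or 34, and in a model of the 4 arrays alone 0 (83 at an unadjusted p under 0.05). In irt1 roots against wild-type roots without Fe, 31 members were called higher and 0 lower (78 and 7 at an unadjusted p under 0.05), where the whole array had 1.06% and 0.774%, or 1.83% in all. That count was 13 or 11 without irt1 root replicate 1 or 2, 19 or 12 without wild-type replicate 1 or 2 (without Fe), and 0 in a model of the 4 arrays (63 at an unadjusted p under 0.05).

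In irt1 roots 2 members (1.59%) were called higher than in wild-type roots with Fe, against 1.88% of all probe sets. The count is thus not above the share of the whole array, and nothing is read from it. Both members moved in the direction opposite to the selection of the wild-type root arrays with Fe. They were noted after their values were seen and have no single gene name. One of them, whose probe set matches several genes, read 6.0 and 6.1 in irt1 roots, 3.4 and 3.6 in wild-type roots without Fe and 4.4 and 4.5 in wild-type roots with Fe, and 9.4 and 9.3 in irt1 shoots. The other, not listed in the annotation, read 7.6 and 7.7 in irt1 roots, 5.9 and 5.8 in wild-type roots without Fe and 6.7 and 6.9 in wild-type roots with Fe. In both, the irt1 root arrays lay above all wild-type root arrays.

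The wild-type shoot arrays also served in choosing the members, for their small difference from each other. In irt1 shoots against wild-type shoots with Fe the members' differences ran from -0.85 to 0.60, with a median of -0.05, and limma called 0 higher and 1 lower (4 and 14 at an unadjusted p under 0.05), where the whole array had 1.93% and 1.65%. The member called was AT1G24575, which read 6.5 and 6.6 in irt1 shoots, 7.3 and 7.4 in wild-type shoots without Fe and 7.6 and 7.2 in wild-type shoots with Fe. Its irt1 shoot arrays lay below the other shoot arrays, -0.85 ± 0.16 (SE) from the wild type with Fe, and it was not called without irt1 shoot replicate 1, the array with the high GAPDH ratio, or without wild-type replicate 1. The number called was 0 without irt1 shoot replicate 1 and 3 without replicate 2. In roots AT1G24575 read 7.4 and 7.2 in irt1, 5.9 and 6.3 in wild type without Fe and 7.1 and 7.1 in wild type with Fe. Against wild-type shoots without Fe limma called 0 members (9 at an unadjusted p under 0.05), where the whole array had 0.409% (0.123% higher, 0.286% lower).

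The irt1 minus wild-type difference with Fe in roots, minus that in shoots, had a median of -0.60 over the members and was called lower for 28 and higher for 3 (limma), where the whole array had 0.87% and 1.13%. It contains the selected wild-type arrays of both organs, and nothing about the members is read from the count. The number of members called lay between 13, without wild-type root replicate 2 (with Fe), and 22, without irt1 root replicate 2. It was 15 and 14 without wild-type root replicate 1 and irt1 root replicate 1, 17 and 15 without wild-type shoot replicates 1 and 2, and 16 without irt1 shoot replicate 1.

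Of 12 gene lists, which hold 158 loci in all, 25 loci had a named probe set, and 23 of these lie outside the members. Of the 23, 10 were called in wild-type roots without Fe, 8 higher and 2 lower, and 9 in irt1 roots, 7 higher and 2 lower, against wild-type roots with Fe in both cases (limma). Over the whole array 5.19% were called in wild-type roots without Fe (2.69% higher, 2.5% lower) and 3.4% in irt1 roots. A model of only the groups compared called 0 of them in either comparison. Besides the members RCA and LHCB4.1, the list of nuclear photosynthesis genes held 3 measured genes. PSAN, a subunit of photosystem I, read 5.5 and 5.9 in irt1 roots, 5.1 and 4.9 in wild-type roots without Fe and 6.8 and 7.0 in wild-type roots with Fe, and LHCB4.2, a second gene for CP29, read 6.0 and 6.4 in irt1 roots, 6.0 and 6.0 in wild-type roots without Fe and 7.1 and 7.4 in wild-type roots with Fe. Both were called lower in both comparisons, whereas LHCB4.3 was not, with a difference of 0.00 without Fe and 0.55 in irt1. PSAN was not a member because its level without Fe was also lower in shoots, at 10.6 and 10.8 without Fe and 12.1 and 12.3 with Fe. LHCB4.2 met the thresholds, with 12.1 and 12.1 in shoots without Fe and 12.3 and 12.3 with Fe, and was left out by name. Its calls therefore share the values that the rule used and are no result from outside the selection.

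On the list of Fe deficiency regulators 6 of 9 measured genes were higher in wild-type roots without Fe and 5 of 9 in irt1 roots. AT1G47400, the Fe signalling peptide IMA1, and BHLH101, a transcription factor, had the largest differences without Fe, of 5.40 and 4.60. The same differences in irt1 roots were 3.55 and 3.35. Of 3 root hair genes, XTH26, which acts on cell wall xyloglucan, and the expansin gene EXPA18 were higher without Fe, by 2.35 and 0.70, and in irt1 roots XTH26 alone was called, at 1.85. Of 2 Casparian strip genes, the receptor kinase gene GSO1 was called higher in irt1 roots, by 0.70. The 3 measured genes for proteins that store or contain Fe had differences of -0.75 to 0.00 without Fe and -0.30 to -0.15 in irt1, the flavonoid gene DFR 0.05 and -0.05, and the type-A response regulator genes ARR15 and RR16 -0.20 and 0.10 without Fe and 0.00 and 0.15 in irt1, none of them called in roots. The lists of aquaporins, the cell cycle, nitrate uptake, sulfate uptake and triterpene clusters had 0 loci with a named probe set and are not analysed here.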

How the data were processed

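The deposited values are log2 expression values made with RMA, per the submitters' processing notes. The sources used here give neither the RMA version nor whether both organs were normalised as one set. Per the titles, arrays are biological replicates, and what they share beyond that is not stated. Of 22810 probe sets 64 controls were left out. All 12 arrays entered one limma 3.58.1 fit (R 4.3.3; lmFit and eBayes, a mean per group, 6 residual degrees of freedom, two-sided), with calls at an adjusted p (Benjamini-Hochberg, 22746 probe sets) under 0.05. SE and adjusted p come from this fit. Precision is limited by 2 arrays a group.

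Gene names come from the platform annotation, updated to the RefSeq table of TAIR10.1. The members and lists were chosen with earlier results of these data known, and the role groups after the annotation had been seen. Genes were named by the lowest and highest differences. These were the 8 lowest without Fe in roots, the 6 lowest and 4 highest in irt1 roots, and 3 of each for roots against shoots. Added were the 5 highest root levels, each call in irt1 shoots, list members, whole role groups and the 2 lowest unnamed members. AT4G20320 and AT2G43160, and AT4G37550 among the flagged results, were named outside these criteria. Replicate numbers were not treated as pairs: deviations of same-numbered arrays correlated between -0.092 and 0.199 over 15 pairs of groups. Alternatives left out single arrays, changed the arrays fitted, the normalisation, weights, trend, block and dim filter, and moved the rule's thresholds. A planned search of promoters was not run, and no sequences are shown.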

Additional observations from a re-analysis of the deposited data

Results flagged for a closer look

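For 12 named members limma called a difference between roots and shoots in the irt1 effect (adjusted p under 0.05). That effect is irt1 minus wild type with Fe (log2). The wild-type arrays in this difference also chose the members, high in roots with Fe, so lower values were favoured in advance. The calls are thus no independent test of these genes, with or without single arrays. Root effect minus shoot effect was -2.20 for PDF2.1, -1.70 for AT2G43890, -1.60 for SP1L2, -1.30 for AT5G58330, -1.25 for AT1G52560, -1.25 for AT2G28780, -1.05 for PRK, -1.05 for AT4G37550, -0.95 for AT1G36060, -0.75 for PSAE-1 and -0.65 for PSBY. The root effects of the other 10 of these 11 genes lay between -1.65, for SP1L2, and -0.75, for PSBY. For AT1G36060 the root effect was -0.40, which was not called (adjusted p 0.187), and the shoot effect was 0.55. AT1G24575 ran the other way, at 1.05, with a root effect of 0.20 and a shoot effect of -0.85. AT2G43890, AT5G58330 and AT1G52560 kept the call when each of the 8 arrays was left out in turn. PRK lost it without wild-type root replicate 2 (adjusted p 0.0565), PDF2.1 without irt1 root replicate 1 (0.0511), and PSBY and AT1G36060 without any 1 of the 8. SP1L2 lost it without any of the 4 root arrays or wild-type shoot replicate 2. AT2G28780 kept it only without irt1 shoot replicate 2, AT4G37550 only without irt1 root replicate 2, PSAE-1 only without irt1 shoot replicate 2, and AT1G24575 only without wild-type shoot replicate 2. Because the wild-type arrays that enter these differences also chose the members, the 11 lower values are not independent of that choice. The value of AT1G24575 contains the same selected arrays.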

How the results depend on the processing

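Each comparison rests on 2 arrays a group, and calls against wild-type roots depend on the spread pooled over all 12 arrays. Low levels understate a change, and unnamed members may include organelle genes. Whether the high shoot levels of many members also understate a change was not tested. The count for irt1 roots against irt1 shoots stayed within 1.5 times its value under each alternative run. Fitting only the groups compared left 0 of the 63 and 2 members called in irt1 roots against wild type with Fe. It left 0 against wild type without Fe, 0 in shoots against wild type with Fe and 10 for the difference of the irt1 effects. Of the list genes it left 0 in wild-type roots without Fe and 0 in irt1 roots. Fitting the arrays of one organ gave 20, 3 and 0 members in the first 3 of these comparisons and 4 list genes in irt1 roots. Both kinds of fit have fewer degrees of freedom and another pooled spread, and the part of each in the lower counts was not tested. Leaving out single arrays gave 34 to 43 members for irt1 roots against wild type with Fe, 11 to 19 against wild type without Fe, 13 to 22 for the difference of the irt1 effects, 0 to 3 for shoots against wild type with Fe and 0 to 1 against wild type without Fe.

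With the replicate number as a block, 3 members were called in irt1 shoots against wild type with Fe, and 65, 36 and 40 in irt1 roots against wild type with Fe, against wild type without Fe and for the difference of the irt1 effects. No other count moved by over 1.5 times under the block. Requiring a mean level of at least 4 gave 2 members in shoots against wild type with Fe, and an intensity trend gave 1 against wild type without Fe. A root threshold of -1.0 left 77 members, one of -0.8 gave 172, and single arrays left out gave 113 to 178. Signs turned only when single arrays were left out, and only for small differences that were not called. Between irt1 roots and irt1 shoots the range was -0.65 to 0.55 for AT2G43160, -0.25 to 0.05 for AT5G16110 and -0.50 to 0.10 for WES1. Between irt1 roots and wild type with Fe the range was -0.05 to 0.45 for AT5G14120, -0.30 to 0.40 for AT1G80380, -0.20 to 0.10 for BGLU45, -0.65 to 0.15 for AT2G36690 and -0.25 to 0.15 for CYP718. The causes of these changes were not tested.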
